A study of Sus scrofa with 24 samples.

Results

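CHODL, CHN1, PPARG, KAZALD1 and TNP2 are 5 genes chosen by their signal on these arrays, as genes far higher in Spleen than in the other tissues. They are 5 of the 10009 named genes tested, and 11 of the 60305 probes on the array read them, of which 10 were tested. Because the Spleen levels chose the genes, they are given as a description with no test. The tests concern what the choice did not use, which is how the genes differed among Peyer, Jejunum and Liver and between animals.

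The groups were spleen (Spleen), a piece of jejunum with a Peyer's patch (Peyer), a piece of jejunum without one (Jejunum) and liver (Liver). All came from the same 6 crossbred pigs (Sus scrofa), which were weaned at 28 days, had free access to feed and water and were killed at 10 weeks of age; the labels name no treatment or genotype that sets animals apart. Animals 68, 69, 70, 71, 73 and 75 each gave 1 sample of each tissue, so that n = 6 per tissue and 24 one-colour Agilent arrays. The samples were pieces of whole tissue, in which fewer cells of a type and less RNA per cell cannot be told apart. A level here is the log2 signal of a probe minus the 75th percentile of its own array, and a difference is between 2 tissues for the same probe. Levels of different probes are not comparable, because each probe binds with its own strength.

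The 75th percentile of the signal lay between 275.4 and 1098.1 on Spleen arrays, 876.7 and 2261.9 on Peyer, 680.9 and 1001.3 on Jejunum, and 423.8 and 525.7 on Liver. Between 60.4% and 75.6% of the probes were called well above background on an array by the scanner software. Spleen and Liver arrays shared slides 1, 2 and 3, and Peyer and Jejunum arrays shared slides 4, 5 and 6, so a difference between a tissue of one set and a tissue of the other cannot be told apart from the slide set. Marker genes matched the tissue labels, with hepatocyte genes at array means of 8.36 to 8.79 in Liver and enterocyte genes at 6.30 to 6.67 in Jejunum. The Peyer array of animal 71 stood apart: its B cell genes averaged -1.37, against up to 1.58 on the other Peyer arrays, and its nearest array was the Jejunum array of the same animal (r = 0.992 across probes). With 6 arrays per tissue, precision is limited by that number.

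The 5 proteins act in different places. CHODL (chondrolectin) is a membrane protein with a C-type lectin domain, CHN1 (chimerin 1) switches off the GTPase Rac through its GTPase-activating domain when diacylglycerol binds it, and KAZALD1 is a secreted protein that joins an insulin-like growth factor binding domain with a Kazal and an immunoglobulin domain. PPARG is a nuclear receptor that pairs with retinoid X receptors and drives fat cell formation, and in mice it is also needed for the macrophages of the splenic red pulp. TNP2 (transition protein 2) replaces histones in spermatids before protamines do, and is known as a gene of the testis. The spleen filters blood through its red pulp, where macrophages take up old red cells, and houses B and T cells in its white pulp. The genes had been grouped as Spleen-enriched with little known role, which does not hold in general for PPARG, CHN1 and TNP2, whose roles in other tissues are well described.

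Each value is a reading by 1 probe, and the sequences below show which probes are independent readings of a gene. The CHODL and KAZALD1 probes hold the hexamer AATAAA, in capitals, which is the usual signal for cutting and tailing a messenger RNA. On the printed strand, the only strand searched, 3 of the 11 probes of these genes held it (the other was PPARG probe 1), against 10.3% of all 60305 probes of 60 bases. Shown are 30 bases around the hexamer, 5′ to 3′, as read from the deposited files.
CHODL: ccttttaccaAATAAAaagttcctgtttct
KAZALD1: gtaggcacgcAATAAAgatttatggacaaa

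The CHN1 probe and the fourth PPARG probe are shown whole, because they have other sources than the remaining probes. The files tie the CHN1 probe, like that of CHODL, to a human and not to a pig transcript, so that the names of both rest on the annotation in the files alone.
CHN1: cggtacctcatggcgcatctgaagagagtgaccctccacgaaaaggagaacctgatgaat
PPARG probe 4: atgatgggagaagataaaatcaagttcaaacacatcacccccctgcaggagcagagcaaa

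PPARG probes 1, 2 and 3 overlap, and the 38 bases that all of them hold are shown as the PPARG shared run. They are therefore repeat readings of 1 stretch, while probe 4 reads a different stretch of the annotated gene.
PPARG shared run: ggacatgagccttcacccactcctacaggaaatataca

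TNP2 also has 4 probes, whose middle 30 bases are shown. Probes 2 and 3 overlap by 52 bases, as their printed parts show, and probes 1 and 4 share no such run with them or with each other.
TNP2 probe 1: gtgtcggtttcacccagatgagaacgccat
TNP2 probe 2: gttactacattgatttctatgcaacattga
TNP2 probe 3: attgatttctatgcaacattgagtaaagct
TNP2 probe 4: aaggggtcatgtgtttgggggcctggttta

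CHODL had levels of 3.38, 3.15, 2.58, 2.49, 2.45 and 2.63 in Spleen of animals 68, 69, 70, 71, 73 and 75, the order used for every gene below. It had levels of -1.64, -2.76, -2.63, -2.97, -1.85 and -1.57 in Peyer and -2.05, -2.31, -1.48, -3.08, -1.93 and -2.23 in Jejunum. In Liver its levels were -3.28, -2.78, -3.26, -2.35, -2.96 and -3.67. Every Spleen array lay far above the 18 others, while the other tissues overlapped one another. The Spleen mean of 2.78 ± 0.39 (SD, n = 6) stood 4.96 above the mean of Jejunum, the next tissue, and 3 of the 10009 named genes had a larger distance of this kind. An unnamed probe that shares a run of 31 bases with the CHODL probe, singled out after its values were seen, had mean levels of 3.08 in Spleen, -1.97 in Peyer, -1.88 in Jejunum and -2.71 in Liver, and its levels followed those of CHODL over the 24 arrays (r = 0.998).

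Among the other tissues CHODL was at mean levels of -2.24 ± 0.62 in Peyer, -2.18 ± 0.53 in Jejunum and -3.05 ± 0.46 in Liver. Peyer minus Jejunum was -0.06 ± 0.28 (SE, limma adjusted p = 0.88), within the spread of the arrays. Jejunum stood 0.87 ± 0.28 above Liver (adjusted p = 0.010) and Peyer 0.81 ± 0.28 above Liver (adjusted p = 0.013), each in 5 of 6 animals. Both passed the p-value but not the size of 1 that a call needed here. Without animal 71 they were 1.19 and 1.1 and would be called. Their size depended on the processing. Normexp background correction gave 0.29 for Jejunum minus Liver and 0.13 for Peyer minus Liver (adjusted p of 0.26 and 0.60). The authors' deposited table gave 2.60 and 2.58, both called. In that table a gene far higher in Spleen must have Liver below Peyer and Jejunum, as described below.

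CHN1 had levels of 1.18, 0.67, 0.90, 0.59, 0.77 and -0.11 in Spleen. Its levels were -4.09, -3.46, -3.94, -4.15, -3.99 and -3.62 in Peyer and -4.41, -3.63, -4.01, -4.25, -4.43 and -4.13 in Jejunum. In Liver they were -3.94, -4.19, -3.80, -2.60, -3.26 and -4.29. The lowest Spleen array, of animal 75, was still above the highest of the others, the Liver array of animal 71. The Spleen mean of 0.67 ± 0.43 stood 4.34 above the Liver mean of -3.68 ± 0.64, the next highest, and 6 named genes had a larger distance.

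The order of the tissues other than Spleen could not be set for CHN1. Peyer minus Jejunum was 0.27 ± 0.24, above 0 in 6 of 6 animals (adjusted p = 0.39). Jejunum minus Liver was -0.47 ± 0.24 (limma adjusted p = 0.10) and Peyer minus Liver -0.20 ± 0.24 (adjusted p = 0.47). None of these differences was called in this fit, which did not pair the samples by animal. An unnamed probe that the files describe as similar to mouse chimerin 1, singled out after its values were seen, had mean levels of -0.19 in Spleen, -5.25 in Peyer, -5.25 in Jejunum and -4.32 in Liver, with Spleen highest as at the CHN1 probe.

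PPARG probe 1 had levels of 3.14, 2.97, 2.24, 2.34, 2.93 and 2.27 in Spleen. It had levels of -1.62, -1.38, -2.10, -0.59, -1.94 and -2.43 in Peyer and -1.10, -0.49, -1.30, -0.94, -1.32 and -1.29 in Jejunum. In Liver its levels were -2.72, -2.66, -2.14, -2.45, -2.38 and -2.39. Spleen overlapped no other tissue, and all Jejunum arrays lay above all Liver arrays. The Spleen mean of 2.65 ± 0.41 stood 3.72 above the Jejunum mean of -1.07 ± 0.32, and 8 named genes had a larger distance. Probes 2 and 3, which overlap it, followed it over the arrays (r of 0.985 and 0.985 with probe 1).

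PPARG probe 4 reads another stretch and stood at lower signal. Its levels in Spleen ran between -1.86 and 0.14, and its Liver signals were well above background on 3 of 6 arrays. Its Spleen mean of -0.78 ± 0.72 stood 3.18 above that of Jejunum, so both stretches of the gene had Spleen highest. Liver had the lowest mean at both, which for probe 4 did not hold with normexp background correction. A probe with the same 60 bases, which the files give no symbol, had mean levels of -0.82 in Spleen, -4.67 in Peyer, -3.95 in Jejunum and -5.87 in Liver, the last from signals well above background on 1 array.

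In the scanner signals PPARG had higher levels in Jejunum than in Liver at all 4 probes. Liver lay on other slides than Jejunum and Peyer, so tissue and slide set cannot be told apart in these differences. Jejunum exceeded Liver by 1.38 ± 0.24 at probe 1 (2.61-fold, adjusted p = 2.5e-05), 2.34 ± 0.27 at probe 2, 2.44 ± 0.27 at probe 3 and 1.17 ± 0.31 at probe 4 (adjusted p = 0.0024), each in 6 of 6 animals and with no overlap between the tissues. Peyer exceeded Liver by 1.76 ± 0.27 at probe 2 and 1.85 ± 0.27 at probe 3 (3.60-fold, adjusted p = 1.7e-06), and by uncalled amounts of 0.78 ± 0.24 at probe 1 and 0.73 ± 0.31 at probe 4. With normexp background correction the Peyer minus Liver difference was 0.89 at probe 2 and 0.85 at probe 3, which ended both calls, and Jejunum minus Liver was 0.86 at probe 1, which ended that call too. Probes 2 and 3 stayed called in Jejunum minus Liver, at 1.49 and 1.41. With the same correction probe 4 gave -0.068 for Jejunum minus Liver and -0.60 for Peyer minus Liver, so that its direction against Liver is not settled. Peyer minus Jejunum was -0.60 ± 0.24 at probe 1 (adjusted p = 0.046, below 0 in 5 of 6 animals) and -0.59, -0.60 and -0.44 at probes 2, 3 and 4, none of them called. Without the Peyer array of animal 71 these were -0.82, -0.81, -0.82 and -0.60, still under the size of 1.

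KAZALD1 had levels of 4.34, 3.72, 3.70, 3.48, 3.68 and 2.85 in Spleen. Its levels were -2.36, -3.48, -2.73, -2.09, -2.70 and -3.18 in Peyer and -2.68, -2.85, -2.64, -2.16, -2.66 and -2.99 in Jejunum. In Liver they were -0.30, 0.82, 0.63, 0.71, -0.25 and -0.30. The tissues formed 3 steps with no overlap between them, with Spleen on top, Liver in the middle and both intestinal tissues together below. The Spleen mean of 3.63 ± 0.48 stood 3.41 above the Liver mean of 0.22 ± 0.55, and 13 named genes had a larger distance.

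The step between Liver and intestine was the part of this pattern that could be tested. Jejunum minus Liver was -2.88 ± 0.26 for KAZALD1 (7.38-fold lower in Jejunum, limma adjusted p = 1.1e-09), and Peyer minus Liver was -2.98 ± 0.26 (7.87-fold lower in Peyer, adjusted p = 5.9e-10), each in 6 of 6 animals. Before any scaling between arrays its signals were already apart, at 151.4 to 237.9 in Peyer and 96.4 to 178.4 in Jejunum, against 357.4 to 834.5 in Liver. Peyer and Jejunum differed by -0.09 ± 0.26 (adjusted p = 0.79). In the authors' deposited table the step had the opposite direction, at 1.71 for Jejunum minus Liver and 1.63 for Peyer minus Liver. In that table the mean of a probe was nearly equal on the slides of Spleen and Liver and on those of Peyer and Jejunum. With Spleen far higher, Liver must then lie below the intestine, so the direction there cannot show which order is right. In the scanner signals the intestinal and Liver arrays lay on different slides, so the order of Liver and intestine is not settled.

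TNP2 probe 1, the brightest of the 4, had levels of 1.46, 0.72, 0.73, 1.01, 0.92 and -0.84 in Spleen. It had levels of -5.28, -5.08, -5.28, -4.77, -5.34 and -5.92 in Peyer and -4.56, -3.54, -3.56, -4.91, -4.13 and -4.65 in Jejunum. In Liver its levels were -2.59, -1.61, -1.74, -3.42, -2.49 and -2.57. Spleen overlapped no other tissue even with the low array of animal 75, Liver lay above both intestinal tissues, and Peyer and Jejunum overlapped through animal 71. The Spleen mean of 0.67 ± 0.79 stood 3.07 above the Liver mean of -2.40 ± 0.66, and 22 named genes had a larger distance.

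The TNP2 probes differed in this pattern. Probes 2 and 3 followed probe 1 over the 24 arrays (r of 0.975 and 0.979), with Spleen means of -0.70 and -0.84 that stood 3.11 and 2.71 above Liver. Probe 4 did not follow them (r between 0.27 and 0.32), and its mean level of -5.13 in Spleen was below that of Liver, with a difference of -0.38. Probe 4 was well above background on 3 of 6 Spleen arrays and was left out of the tests. The heat map of all probes shows it as the 1 row without a raised Spleen block. Whether probes 1, 2 and 3 read TNP2 or another transcript could not be checked here. What is called TNP2 in this text is the signal of these probes, whose name rests on the annotation in the files alone.

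**Figure D1:**
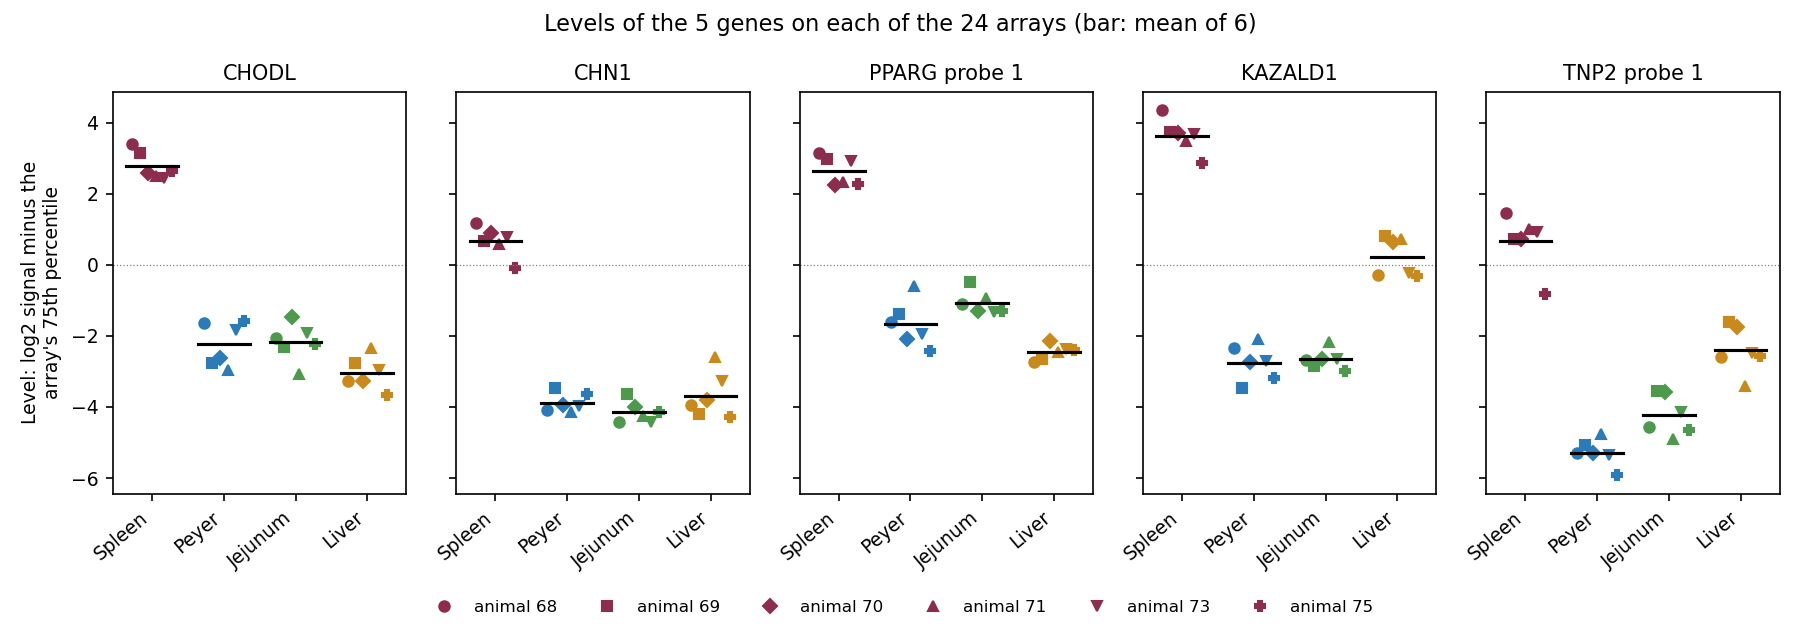
Level of CHODL, CHN1, PPARG probe 1, KAZALD1 and TNP2 probe 1 on each of the 24 arrays (log2 signal minus the 75th percentile of the array), by tissue, with a marker shape per animal and a bar at the mean of 6. Spleen stands above all other tissues for each gene, Liver is second for KAZALD1 and TNP2 and lowest for CHODL and PPARG, and animal 75 is low in Spleen for CHN1, KAZALD1 and TNP2.

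At TNP2 probe 1, which was well above background on all 24 arrays, both intestinal tissues were lower than Liver in the scanner signals. They lay on other slides than Liver, so tissue and slide set cannot be told apart here. Jejunum minus Liver was -1.82 ± 0.34 (3.54-fold lower in Jejunum, limma adjusted p = 6.2e-05) and Peyer minus Liver -2.88 ± 0.34 (adjusted p = 8.3e-08). Each held in 6 of 6 animals, with no overlap of levels with Liver. Before the scaling the signals overlapped, at 42.0 to 154.9 in Liver, 26.6 to 60.7 in Jejunum and 25.5 to 66.8 in Peyer. Probes 2 and 3 could not measure the differences against Liver, because 1 Peyer array was well above background for each probe, and 4 and 3 Jejunum arrays. Probe 2 was tested only through its Spleen arrays, having 5 of 6 Liver arrays well above background. Their fitted differences, -1.83 and -2.5 for Jejunum minus Liver and -3.34 and -3.59 for Peyer minus Liver, therefore hold signals near background and are given only as the values behind the counts below.

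Peyer was also lower than Jejunum at TNP2 probe 1, by a difference of -1.05 ± 0.34 (2.08-fold, limma adjusted p = 0.017) that was below 0 in 5 of 6 animals. The signals were small, between 25.5 and 66.8 in Peyer and between 26.6 and 60.7 in Jejunum, and overlapped before the scaling to the 75th percentile. Without the Peyer array of animal 71, which stood apart, the difference was -1.16 (adjusted p = 0.011). Within slides 4, 5 and 6, which hold both tissues, it was -1.13, -0.79 and -1.24. The call ended at sizes under 1 with median centring (-0.88), quantile normalization (-0.82) and normexp background correction (-0.76), and in the authors' deposited table (-0.58). It also ended without animal 69, 70 or 73, at -0.96, -0.92 and -1.02. Probes 2 and 3, mostly near background in both tissues, gave fitted differences of -1.5 and -1.09.

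Read over all 10 tested probes, Peyer minus Jejunum gave 0 higher and 3 lower calls at TNP2, of which those at probes 2 and 3 rest on signals mostly near background, beside 14.1% of all tested probes called (5.61% higher and 8.48% lower). The median difference was -0.59 over these probes and -0.16 over all tested probes. Jejunum minus Liver gave 4 higher calls, all at PPARG, and 4 lower calls at KAZALD1 and TNP2, against 33.3% of all tested probes called (18.1% higher and 15.2% lower). Peyer minus Liver gave 2 higher calls at PPARG and 4 lower calls at KAZALD1 and TNP2, against 41.2% called (19.7% higher and 21.4% lower). Among the lower calls against Liver, those at TNP2 probes 2 and 3 hold intestinal signals near background, and probe 2 was tested only through Spleen. All of these comparisons share samples, and probes of 1 gene are not independent.

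The direction against Liver depended on which values were used, the scanner signals or the authors' own. In the authors' deposited table, fitted the same way, TNP2 turned direction like KAZALD1, to 1.70, 1.66 and 1.37 for Jejunum minus Liver and 1.11, 1.16 and 1.04 for Peyer minus Liver at probes 1, 2 and 3, and CHN1 to 1.83 and 2.07. In that table the mean of a probe over the arrays of slides 1 to 3 and its mean over slides 4 to 6 differed by a median of 0.06, against 0.50 in the scanner values, and by more than 1 in 0% of 44600 probes against 24.2%. PPARG had the same direction as in the scanner signals, at 2.05 to 2.49 for Peyer minus Liver at probes 1, 2 and 3. With slide-set means so close, a gene far higher in Spleen must have Liver below Peyer and Jejunum in that table. Its directions against Liver were therefore fixed for these genes. Neither a kept nor a turned direction there can show which order is right.

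**Figure D2:**
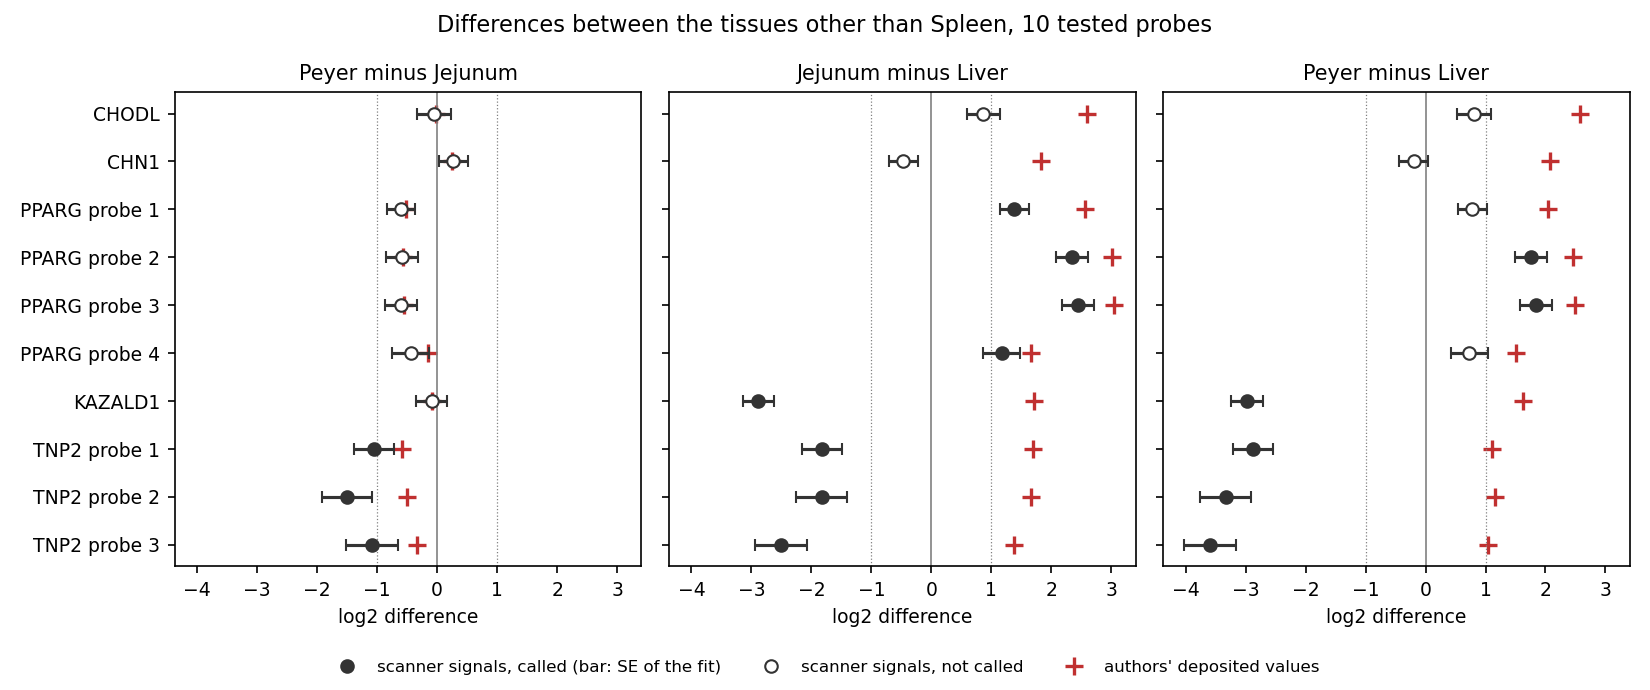
Differences in log2 level for the 10 tested probes in Peyer minus Jejunum, Jejunum minus Liver and Peyer minus Liver, with circles for the scanner signals (filled where called, bars the SE of the fit) and crosses for the authors' deposited values; dotted lines mark a difference of 1. Circles and crosses lie together in Peyer minus Jejunum except at TNP2, and on opposite sides of 0 against Liver for CHN1, KAZALD1 and TNP2.

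Within shared slides the Spleen levels could be set against Liver directly. Spleen minus Liver on slides 1, 2 and 3 was 6.29, 5.33 and 5.85 for CHODL, 4.99, 3.94 and 4.10 for CHN1, and 5.75, 4.59 and 4.98 for PPARG probe 1. It was 3.77, 2.92 and 3.54 for KAZALD1 and 3.19, 3.45 and 2.57 for TNP2 probe 1. Every slide thus had the same direction for each gene, as a description of the values that chose them. In the authors' table the distance of Spleen to the next tissue was smaller, at 2.5 for CHODL, 1.68 for CHN1, 2.02 for PPARG probe 1, 1.62 for KAZALD1 and 1.01 for TNP2 probe 1.

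At all 10 tested probes each of the 6 Spleen arrays lay above each of the 18 others. By comparison, 7.93% of all tested probes had that separation, and 1.5% were at least 2 above each other tissue at an adjusted p under 0.05. Nothing is read from these counts, since this contrast chose the genes.

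**Figure D3:**
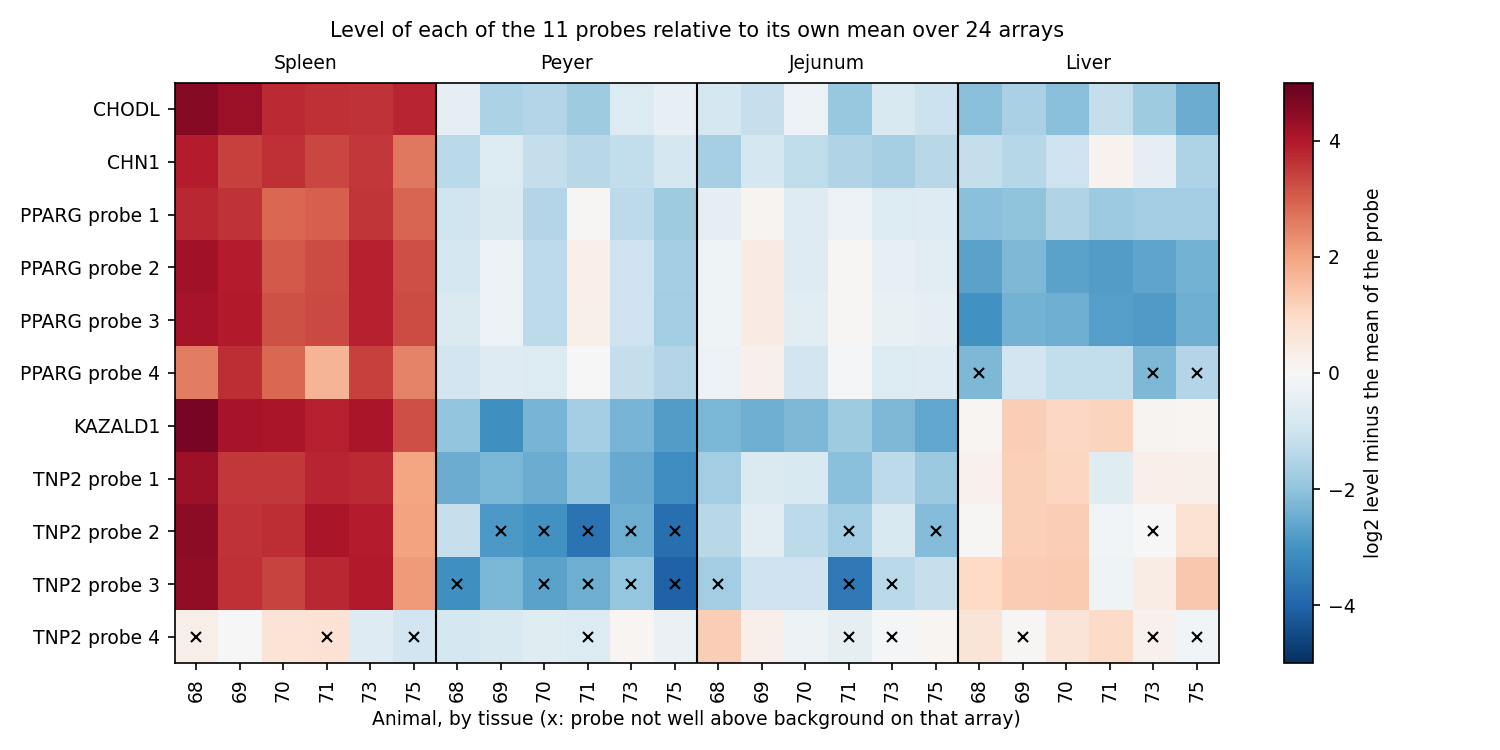
Level of each of the 11 probes on each array relative to the mean of that probe over 24 arrays (colour, log2), in columns by tissue and animal; a cross marks a probe not well above background on that array. All rows but TNP2 probe 4 have a raised Spleen block, and the crosses gather in Peyer and Jejunum for TNP2 probes 2 and 3.

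Differences between animals were not called for any of the 10 tested probes in the F-test of animal beside tissue (limma, adjusted p between 0.25 and 0.85), and 0 had an unadjusted p under 0.05. Over all tested probes 5.47% were called and 20.5% had an unadjusted p under 0.05. With arrays weighted by quality, TNP2 probe 1 passed (F = 6.04, adjusted p = 0.030). The Spleen array of animal 75 was the lowest of 6 at 5 of the 10 probes, against 14.4% of all tested probes and 24.1% of those enriched in Spleen. These 5 were the probes of CHN1 and KAZALD1 and TNP2 probes 1, 2 and 3. Probes of 1 gene are not independent, so nothing is read from the count. The Spleen array of animal 75 had the lowest mean of the Spleen arrays for endothelial markers (-0.99), for insulin-like growth factor genes (-0.41) and for spleen patterning factors (-1.07). It was not the lowest for any other gene list described here, and was the highest for platelet markers (-0.68). The part of such genes in its low values was not tested.

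In the scanner signals the 5 genes differed in the order of tissues below Spleen. KAZALD1 and TNP2, both with Liver second there, followed each other over the 24 arrays at r = 0.962, and CHODL and CHN1 at r = 0.95, as did CHODL and PPARG at r = 0.942. The lowest value among the 10 pairs was 0.748, between PPARG and KAZALD1. All of these correlations hold the shared Spleen level, which chose the genes. After the mean of each tissue was subtracted, the pairs lay between -0.30 for CHODL with PPARG and 0.44 for PPARG with TNP2.

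Genes with the most similar levels over 24 arrays were named for each member, by Pearson r among 8946 genes, as a description. For KAZALD1 they were PSAP, which encodes the precursor of the lysosomal saposins (r = 0.983), RAB3IL1 (0.982), PLA2G15, a lysosomal phospholipase (0.982), C1QB, a chain of complement C1q (0.974), and HMOX1, the haem-degrading enzyme (0.972). For TNP2 they were PSAP (0.966), TGFBR3, a co-receptor for transforming growth factor beta (0.964), CSF1R, the receptor of the macrophage growth factor CSF1 (0.961), RAB3IL1 (0.961) and PLA2G15 (0.960). In the scanner signals every gene named here for KAZALD1 and TNP2 had Liver second, like both members, a pattern that the correlation itself picks. As examples, HMOX1 had mean levels of 6.74 in Spleen, 2.13 in Peyer, 2.41 in Jejunum and 4.79 in Liver. CSF1R had mean levels of 1.07 in Spleen, -3.54 in Peyer, -2.90 in Jejunum and -1.62 in Liver.

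For CHODL the closest were PRKACB, a catalytic subunit of protein kinase A (0.972), UST, a sulfotransferase (0.964), FAM49A (0.961), TMTC1 (0.960) and SUFU, an inhibitor of hedgehog signalling (0.956). For CHN1 they were ABCC5, a transporter (0.971), ZFYVE16 (0.968), ZDHHC8 (0.968), the kinase MAP3K3 (0.966) and B4GALNT1, a ganglioside synthase (0.966). For PPARG they were NOTCH3, a receptor known from vascular smooth muscle (0.966), PTPN9 (0.960), SLC45A3 (0.960), CST3, the protease inhibitor cystatin C (0.960), and SLC12A9 (0.958). Each of these had Spleen highest, by less than the member: UST, the widest of the CHODL group, had mean levels of 0.65 in Spleen, -2.40 in Peyer, -2.36 in Jejunum and -2.55 in Liver. By Spearman rank correlation the lists changed almost wholly, with 2 of the 25 names shared, so the names depend on the measure.

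**Figure D4:**
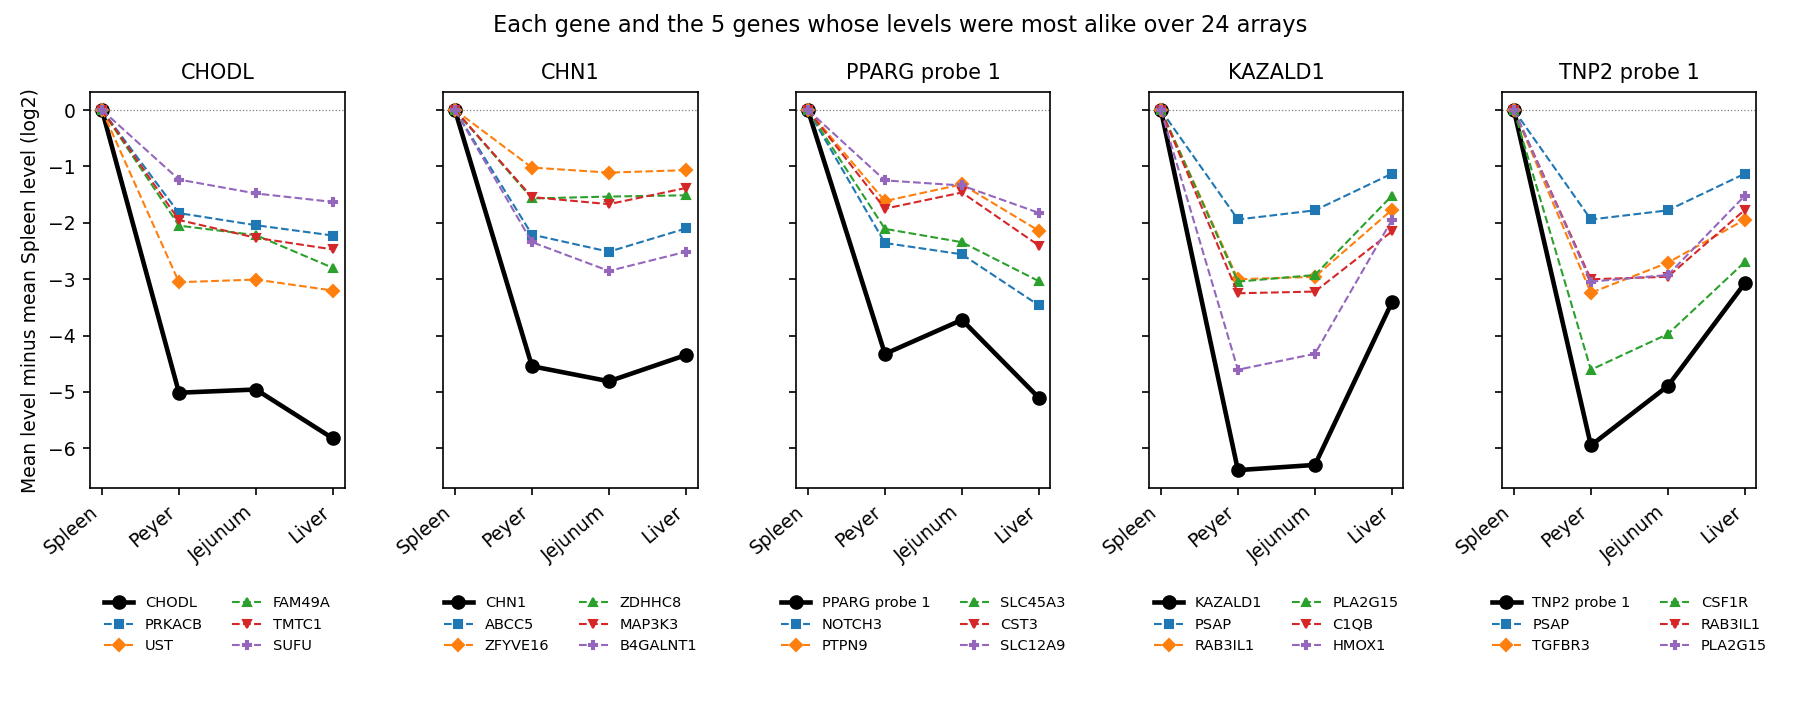
Mean level of each member and of its 5 most similar genes in each tissue, minus the mean Spleen level of that gene (log2); lines join the tissues only to guide the eye. The members drop further below Spleen than the genes named with them, and the KAZALD1 and TNP2 groups turn up in Liver.

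Within tissues other genes came out on top. After subtraction of tissue means the closest to CHODL were SSPN (r = 0.796), LIMS2 (0.765) and TMEM59L (0.762), and among those closest to CHN1 were ENO2 (0.730) and PHF14 (0.696). For PPARG they were KLHL3 (0.825), the junction protein gene F11R (0.819) and SIAE (0.808), for KAZALD1 CCDC30 (0.772), CRIP2 (0.759) and SLC8B1 (0.751), and for TNP2 P4HTM (0.799), PPFIBP2 (0.765) and CC2D2A (0.732). None of these names was among those by level. Such r values are the highest in a search of 8946 genes and are given as a description with no test.

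Other genes of the pathways of the 5 members were described from lists chosen with earlier results known. Among the 10009 named genes, Spleen was the highest tissue for 31.7%. Of those named genes 13.4% were called in Peyer minus Jejunum (6.2% higher and 7.2% lower), 33.6% in Jejunum minus Liver (17.6% and 16.1%) and 40.7% in Peyer minus Liver (19.5% and 21.2%). Of 30 tested genes of the Rac GTPase cycle, in which CHN1 acts, Spleen was highest for 18. In Peyer minus Liver 18 of them were higher and 0 lower, in Jejunum minus Liver 10 higher and 1 lower, and in Peyer minus Jejunum 6 higher and 1 lower, with a median difference of 0.36 in the last against -0.12 over all named genes. PREX1, a Rac activator of white blood cells, had mean levels of 3.82 in Spleen, 2.2 in Peyer, 1.51 in Jejunum and 1.31 in Liver. VAV1, the activator of blood cells, was at 4.57 in Spleen and rose in Peyer over Jejunum by 1.59 ± 0.25, and ARHGAP15, another Rac GTPase-activating protein, by 1.56 ± 0.22. SRGAP2 was at 2.83 in Spleen against 1.37 in Liver, its next tissue. B cell markers were also higher in Peyer than in Jejunum, in 6 of 7 genes, and the part of these cells in the Rac genes was not tested.

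Of 33 tested partners and targets of PPARG, Spleen was highest for 7, or 21.2%. In Jejunum minus Liver 10 were higher and 12 lower, in Peyer minus Liver 11 and 12, and in Peyer minus Jejunum 3 and 5. CD36, a fatty acid and lipoprotein receptor, had mean levels of 1.43 in Spleen, -0.28 in Peyer, 0.80 in Jejunum and -3.49 in Liver, and fell in Peyer against Jejunum by 1.08 ± 0.30. OLR1, the receptor of oxidised LDL, had Spleen highest at 2.43, and ABCG1, a cholesterol exporter, at -3.89 with signals in the other tissues mostly not above background. UCP2 rose in Peyer over Jejunum by 3.0 ± 0.33, and PLIN1, which coats fat droplets, by 2.68 ± 0.29, with 2 Jejunum arrays well above background.

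Markers of fat cells, in which PPARG is best known, were not jointly raised in Spleen. Over 5 tested markers of adipocytes the array means were -3.13 to -2.30 in Spleen, -1.08 to -0.55 in Peyer, -1.33 to -0.51 in Jejunum and -1.61 to -1.31 in Liver, but the markers differed among themselves. CIDEC and FABP4 had their lowest levels in Spleen, at -4.27 and -3.63. LEP was lowest in Liver, at -3.50 in Spleen against -3.68 there, as was LIPE, at 1.38 in Spleen against -1.19. PLIN1 was at -3.61 in Spleen against -5.84 in Jejunum, its lowest tissue, and ADIPOQ, which encodes adiponectin, was not above background often enough to be tested. Markers of red pulp macrophages had array means over 7 tested genes of 2.52 to 3.09 in Spleen, -1.99 to -0.81 in Peyer, -2.34 to -1.74 in Jejunum and 1.40 to 2.13 in Liver. These markers differed too: VCAM1 was at 5.67 in Spleen and 2.94 in Peyer, its next tissue, and CD163 at 4.50 in Spleen and 4.46 in Liver. CD5L was at 6.76 in Spleen against 7.32 in Liver, and SLC40A1 at -4.42 in Spleen against -3.79 in Liver, its highest tissue. The part of these cells in any member's level was not tested.

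Of 22 tested C-type lectin and related genes, the family of CHODL, Spleen was highest for 7. In Peyer minus Jejunum 2 were higher and 1 lower, in Jejunum minus Liver 8 and 10, and in Peyer minus Liver 7 and 10. CLEC7A, the receptor of fungal beta-glucan, had a Spleen level of -2.32, the only one of the list at least 2 above its next tissue by mean level. That tissue was Liver, with signals well above background on 4 arrays. LAYN (layilin), a relative of CHODL, was at -3.40 in Spleen, -5.80 in Peyer, -5.30 in Jejunum and -4.26 in Liver. Its signals were well above background on 3 Peyer, 4 Jejunum and 5 Liver arrays. THBD was at -0.23 in Spleen. CLEC4G, a lectin of sinusoidal endothelium, rose in Peyer over Jejunum by 6.57 ± 0.64 but was well above background on 1 Jejunum array, and CD69, an early marker of activated lymphocytes, by 1.31 ± 0.28.

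Of 20 tested insulin-like growth factor genes, Spleen was highest for 8, led by IGF1 at 2.41 in Spleen against 0.75 in Peyer, 0.02 in Jejunum and 0.60 in Liver. IGFBP6 was at 1.92 and STC1 at -1.12 in Spleen. In Peyer minus Jejunum 1 was higher and 3 lower, with IGFBPL1 at 3.85 ± 0.50 and STC2 at -1.90 ± 0.35. In Jejunum minus Liver 4 were higher and 7 lower, and in Peyer minus Liver 4 and 8. Of 15 tested Kazal domain genes Spleen was highest for 5, by small distances of 0.49 for SMOC1, 0.35 for SMOC2 and 0.12 for SPOCK1. In Peyer minus Jejunum 2 of these genes were higher and 3 lower, among the lower TMEFF2 at -1.85 ± 0.62 and WFIKKN2 at -1.50 ± 0.37. In Jejunum minus Liver 6 were higher and 5 lower, and in Peyer minus Liver 5 and 5.

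Most other spermatid genes could not be tested. Of 32 listed genes of late male germ cells 22 had a named probe and 7 were tested. Spleen was highest for 2 of the 7, ZPBP by 0.24 and TSSK4 by 0.20. PRM1, a protamine, was well above background on 3 of 6 Spleen arrays at a mean level of -5.36, and TNP1 on 0 of 6, so neither was tested. In Peyer minus Jejunum 1 of the 7 was higher and 0 lower, CREM, a transcription factor with forms in many tissues, at 1.29 ± 0.20. ACRV1 was at -0.72 ± 0.28 and not called, and ODF2 had Peyer highest at -1.65. In Jejunum minus Liver 1 was higher and 1 lower, and in Peyer minus Liver 1 and 2.

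Neighbouring genes in the pig reference annotation (RefSeq, Sscrofa11.1) were looked up for their levels. KAZALD1 lies between SFXN3 and TLX1, and TLX1, needed to form the spleen in mice, had no named probe here. SFXN3, a mitochondrial transporter, had mean levels of -0.06 in Spleen, -1.23 in Peyer, -1.28 in Jejunum and -2.54 in Liver, with Spleen 1.18 above the next tissue and Liver lowest. CHODL lies between C13H21orf91, at 0.95 in Spleen against 1.15 in Liver, its highest tissue, and TMPRSS15, the intestinal enzyme enteropeptidase, at -5.57 in Spleen against -0.53 in Jejunum. CHN1 lies next to ATF2, at -4.82 in Spleen and -4.43 in Liver. TNP2 follows the protamine genes and precedes SOCS1, which had no named probe here.

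Of 5 tested spleen patterning factors, Spleen was highest for 4. WT1, needed for spleen formation in mice, had a Spleen level of 1.32 and stood 6.28 above its Liver level, with signals well above background on 1 Peyer, 0 Jejunum and 2 Liver arrays. NR2F2 was at 1.74 in Spleen against 1.01 in Liver, and TCF21 at -0.30 in Spleen against -0.84 in Jejunum. No gene of this list was called in Peyer minus Jejunum, 1 was higher and 2 were lower in Jejunum minus Liver, and 1 was higher and 2 were lower in Peyer minus Liver.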

How the data were processed

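The deposited scanner files hold the signal of each spot as intensity, which Agilent Feature Extraction 10.10.1.1 computed with background subtracted, per the file headers. In the authors' deposited table, 44600 probes have log2 values whose sorted columns are identical (median 8.24). The submitters' processing notes name limma but no centring step. That table served as an alternative. Direction and scale were checked against the scanner signals, whose tissue differences correlated with those of the table at r = 0.956 for Peyer minus Jejunum, 0.706 and 0.694 for Jejunum and Peyer against Liver, 0.322 for Spleen minus Peyer, 0.560 for Spleen minus Jejunum and 0.962 for Spleen minus Liver.

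Of 61625 spots 1319 were controls. Levels are log2 signals minus the 75th percentile of each array. Testing required that all 6 arrays of some tissue had the probe well above background with no outlier flag, which left 42650 probes, and 42.3% of all probes had a gene name. A gene is represented by its probe with the highest mean. Differences were fitted with limma 3.58.1 (R 4.3.3, lmFit and eBayes) on 24 arrays, with p-values adjusted by Benjamini and Hochberg over all tested probes, and called at an adjusted p under 0.05 and a difference of at least 1. The main fit of these differences held tissue only and did not pair the samples by animal, which was done in an alternative. The fit was tested on simulated data. The replicate numbers are animal numbers and so pair the samples: deviations from tissue means correlated at a mean r of 0.170 over 36 pairs of arrays of 1 animal, against -0.034 over 180 pairs of different animals.

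The members and the gene lists were chosen with earlier results of these data known. Named genes are the members with every probe, for each member the 5 genes most alike by level and the 3 by deviation from tissue means, and in each pathway list up to 3 genes with the largest distance of Spleen to the next tissue and up to 2 with the largest Peyer minus Jejunum difference. Probes outside this rule are marked where they appear. Some genes that the rule names are not reported here. The alternatives were other scalings, background correction, filters, array weights, blocks and arrays left out.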

Additional observations from a re-analysis of the deposited data

Results flagged for a closer look

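Among 40 sets of 6 arrays (10 tested probes in 4 tissues), 3 held an array whose distance to its nearest neighbour was a large share of the range of the set (over Dixon's critical value for 6 arrays), where chance gives about 1 in 20 sets. TNP2 probe 1 in Spleen was at -0.84 in animal 75, against 0.72 to 1.46 in the other animals. TNP2 probe 2 in Spleen was at -2.34 in animal 75, against -0.70 to 0.14 in the others. TNP2 probe 3 in Jejunum was at -7.97 in animal 71, where it was not well above background, against -6.14 to -5.42 in the others. The sets of TNP2 probes 1 and 2 in Spleen read the same gene on the same arrays and are not independent of each other.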

How the results depend on the processing

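All values are log2 differences or counts of called probes among the 10 tested. The Peyer minus Jejunum count of 3 became 1 with median centring, 1 with quantile normalization, 0 with normexp, 0 with the authors' values and 1 of 7 with only probes well above background on all 24 arrays. It lay between 1 and 3 with an animal left out, at 1 without animal 69, 70 or 73. The Jejunum minus Liver count of 8 became 5 with normexp and 5 of 7 with the stricter filter. The Peyer minus Liver count of 6 became 10 with the authors' values. There KAZALD1 and TNP2 probes 1, 2 and 3 turned from lower to higher calls. The animal effect count of 0 became 1 with array weights, the count of probes with Spleen at least 2 above each other tissue went to 4 of 10 with the authors' values, and 2 of 25 names were shared under Spearman's rho. The stricter filter left 7 of the 10 probes to test. With the authors' values, directions against Liver follow from the nearly equal slide-set means. For the remaining changes the cause was not tested.

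Directions turned for small differences. Peyer minus Jejunum of CHODL became 0.12 with median centring, 0.070 with quantile normalization and 0.24 with array weights, and lay between -0.20 and 0.16 with arrays left out. That of KAZALD1 became 0.087 with median centring and 0.070 with quantile normalization, and lay between -0.23 and 0.015 with arrays left out. That of CHN1 became -0.15 with normexp, and Peyer minus Liver of CHN1 lay between -0.38 and 0.073 with arrays left out. PPARG probe 4 became -0.068 for Jejunum minus Liver and -0.60 for Peyer minus Liver with normexp. For Jejunum against Liver the authors' values gave 1.83 for CHN1, 1.71 for KAZALD1 and 1.70, 1.66 and 1.37 for TNP2 probes 1, 2 and 3. For Peyer against Liver they gave 2.07, 1.63, 1.11, 1.16 and 1.04 in the same order. With those values the directions against Liver follow from the nearly equal slide-set means and the high Spleen levels.

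With the animal as a replicate block the counts were 3, 8 and 6, and no call of a member changed. With slide as a block on 12 arrays the Peyer minus Jejunum count was 2. Over all tested probes, 6010 were called in Peyer minus Jejunum (39.8% of them higher), against 5464 (59.6%) with median centring, 5327 (53.1%) with quantile normalization, 3644 with normexp, 3764 (55.6%) with the authors' values and 3332 with the stricter filter. In Jejunum minus Liver 14192 became 9450 with normexp, 4445 (42.5% higher, against 54.4%) with the authors' values and 8439 with the stricter filter. In Peyer minus Liver 17559 (47.9% higher) became 7588 with the authors' values, 27326 (32.2%) with no filter, 11183 with the stricter filter and 15646 (30.9%) with normexp. The animal effect count of 2335 became 1360 with the authors' values, 3573 with array weights and 1249 without animal 75.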
